A study of Mus musculus with 3 samples.

Results

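Transcripts of 10 myosin heavy chain genes, named by gene symbol as Myh1, Myh2, Myh3, Myh4, Myh6, Myh7, Myh7b, Myh8, Myh9 and Myh10, were followed in RNA sequencing of 3 whole mouse hearts. All 3 hearts were wild-type, came from the inbred strain C57BL/6J and were taken at postnatal day 9, so there is 1 group and no second condition. Hearts 1, 2 and 3 below carry the labels' replicate numbers. Of the 10 genes, 9 were found among the 18038 genes of the table, and Myh4 is not analysed here. The labels do not say whether the hearts came from separate animals or litters. Each p-value thus speaks for these 3 samples alone, and the spread among them could be technical. RNA came from whole tissue, in which fewer cells of a type and less RNA per cell cannot be told apart.

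Class II myosin heavy chains carry the motor head that splits ATP and pulls on actin, and the long tail through which they pair and build filaments. In striated muscle they form the thick filaments of the sarcomere. Myh6 encodes the fast alpha chain, the main chain of the adult mouse heart, and Myh7 the slower beta chain of the fetal ventricle and of slow skeletal fibres. In rodents Myh7 gives way to Myh6 in the ventricle around birth, and thyroid hormone is a known regulator of that switch. Myh7b is a more distant striated relative. Myh3 and Myh8 are the embryonic and perinatal chains of skeletal muscle, and Myh1, Myh2 and Myh4 the fast chains of adult skeletal fibres. Myh9 and Myh10 encode the non-muscle chains IIA and IIB, which serve cell division, adhesion and migration in many cell types.

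Total counts were 17766501, 18643408 and 18768094 in hearts 1, 2 and 3. The heart label was borne out by cardiomyocyte markers, of which 12 of 12 were detected with a summed level of 96993 to 100927 TPM per heart. TPM is a length-scaled level that sums to 1000000 in each heart, and a gene was called detected at 1 CPM (its counts per 1000000 counts of the heart) or more in all 3 hearts. By that rule 71.8% of all genes were detected. Heart 1 stood apart in airway genes, none of which was detected in all hearts. Scgb1a1, Scgb3a1, Scgb3a2 and Cyp2f2, genes of secretory airway cells, had 1358 to 4096 counts in heart 1 and at most 13 in the others. Sftpd, a surfactant protein gene, had 38, 0 and 0 counts in hearts 1, 2 and 3, and Foxj1, a gene of ciliated cells, had 35, 5 and 5 counts. These 6 genes passed the edgeR test of variation described further on. The summed level of the 9 lung airway and alveolar markers was 2464 TPM in heart 1, 1.30 TPM in heart 2 and 8.68 TPM in heart 3. The mean level, the shares, the pair ratios and the test of variation of Myh7, which also differed between hearts, are given with and without heart 1.

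The genes differ in how much sequence they share, which bears on how reads can be assigned. Myh6 and Myh7 lie side by side on the minus strand of chromosome 14 (GRCm38, GENCODE M21), Myh6 with 39 exons from 54941921 to 54966927 and Myh7 with 41 exons from 54970684 to 54994626. Only 3756 bases separate them. Their coding sequences were 91.8% identical, and in 60-base windows of the coding alignment the median was 2 differences. Of 5527 such windows, 1154 (20.9%) were identical. A stretch of both genes is shown at each extreme, read 5′ to 3′ from the GENCODE M21 transcripts and crossing an exon junction. The first is the longest identical run, 245 bases in exons 30 and 31 of Myh6 (chr14:54948327-54948725) and exons 32 and 33 of Myh7 (chr14:54974947-54975347). A read that lies within it fits either gene equally well.
Myh6 and Myh7, identical run: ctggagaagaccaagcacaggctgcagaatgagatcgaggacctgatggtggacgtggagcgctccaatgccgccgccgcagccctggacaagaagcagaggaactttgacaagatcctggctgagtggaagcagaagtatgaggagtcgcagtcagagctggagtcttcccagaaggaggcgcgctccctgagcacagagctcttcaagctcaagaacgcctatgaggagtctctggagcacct
The second pair of lines is the 60-base window with the most differences, in exons 24 and 25 of Myh6 (chr14:54952303-54952599) and exons 26 and 27 of Myh7 (chr14:54980378-54982191). The 27 bases that differ are in capitals, and a read from here belongs to one gene.
Myh6, window with most differences: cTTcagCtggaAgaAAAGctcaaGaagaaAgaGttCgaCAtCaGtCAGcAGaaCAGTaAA
Myh7, window with most differences: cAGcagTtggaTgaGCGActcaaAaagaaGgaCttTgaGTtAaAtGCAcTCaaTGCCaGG

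A second group of near-identical genes lies on chromosome 11. Myh3, Myh2, Myh1, Myh4 and Myh8 stand there in this order within 230335 bases, all on the plus strand. Coding identity among Myh1, Myh2, Myh4 and Myh8 ran from 88.1% to 91.1%. Myh10, also on the plus strand of chromosome 11 (68691559 to 68816632), and Myh9, on the minus strand of chromosome 15 (77760587 to 77842175), were 75.4% identical to each other. Myh7b, on the plus strand of chromosome 2 (155611212 to 155634307), was at most 73.5% identical to any other of the 10 genes. The striated and non-muscle genes were 64.0% to 66.6% identical to each other.

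Myh6, Myh7, Myh7b and Myh3 each carry a microRNA in an intron. That of Myh3, miR-6923-5p, lies after exon 35 and has a different seed, UGAGGGC. The mature strands of the other 3 are given because they link Myh6, Myh7 and Myh7b by more than their coding sequence. They are shown as listed by RefSeq for GRCm38.p6, with the seed, bases 2 to 8, in capitals.
miR-208a-3p, in the intron after exon 29 of Myh6: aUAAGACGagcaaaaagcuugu
miR-208b-3p, in the intron after exon 31 of Myh7: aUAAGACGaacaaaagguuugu
miR-499-5p, in the intron after exon 19 of Myh7b: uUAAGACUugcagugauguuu
The microRNAs of Myh6 and Myh7 have the same seed, and that of Myh7b has a seed that differs from theirs in its last base. The levels of these microRNAs were not analysed here.

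Myh6 was the predominant heavy chain of these hearts. Its level was 12610 TPM in heart 1, 12257 TPM in heart 2 and 11975 TPM in heart 3, a mean of 12281 ± 318 TPM (SD, n = 3, as for all means that follow). The hearts lay close together, with a coefficient of variation of 2.59%. By level Myh6 ranked 5 among all genes, and by counts it ranked 1, with 685054, 684263 and 695861 counts in hearts 1, 2 and 3. It took 3.74 ± 0.0982% of all counts and 1.23 ± 0.0318% of all TPM. Of the summed TPM of the 9 genes, Myh6 held 98.2 ± 0.101%.

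Every other heavy chain was far below Myh6 in each heart. Myh9 came next, at 74.0, 89.4 and 85.7 TPM in hearts 1, 2 and 3 (83.0 ± 8.05 TPM). Myh10 was at 51.2, 65.0 and 54.1 TPM (56.8 ± 7.24 TPM). Myh6 was 170, 137 and 140 times Myh9 in hearts 1, 2 and 3. Both non-muscle chains had their lowest value in heart 1 and their highest in heart 2, within a range of 1.21-fold and 1.27-fold. Their shares of the summed level were 0.665 ± 0.0774% for Myh9 and 0.454 ± 0.0612% for Myh10.

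The minor striated chains of the heart were Myh7b and Myh7. Myh7b was at 58.0, 51.4 and 47.6 TPM in hearts 1, 2 and 3 (52.3 ± 5.23 TPM), a share of 0.418 ± 0.0306%. Myh7 was at 48.8, 25.5 and 14.8 TPM (29.7 ± 17.4 TPM), a share of 0.235 ± 0.132%. Without heart 1 the mean of Myh7 was 20.1 TPM and its share 0.163%. The values of Myh7 lay far apart, with heart 1 at 3.30 times heart 3, while those of Myh7b spanned 1.22-fold. Leaving Myh6 out of the sum, Myh9 held 37.3 ± 5.23% of the rest, Myh10 25.4 ± 3.09%, Myh7b 23.4 ± 1.41% and Myh7 13.0 ± 7.07%, or 9.08% for Myh7 without heart 1.

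The developmental and fast skeletal chains were at the lower end. Myh8 was detected at 1.49, 2.32 and 1.72 TPM in hearts 1, 2 and 3 (1.84 ± 0.430 TPM), from 81.9, 131 and 101 counts. It lay below the median of all genes, 9.41 TPM, and held 0.0148 ± 0.00355% of the summed level. Myh3 had 1, 3 and 3 counts, Myh2 had 3.04, 0 and 2 counts, and Myh1 had 1.01, 1 and 1 counts. All 3 genes thus had reads, but too few in any heart for a level to be set against other genes. For Myh2 in heart 2, listed at 0, counting error alone leaves room for 3 counts, or 0.161 CPM. In all, 6 of the 9 genes were detected, against 71.8% of all genes.

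**Figure D1:**
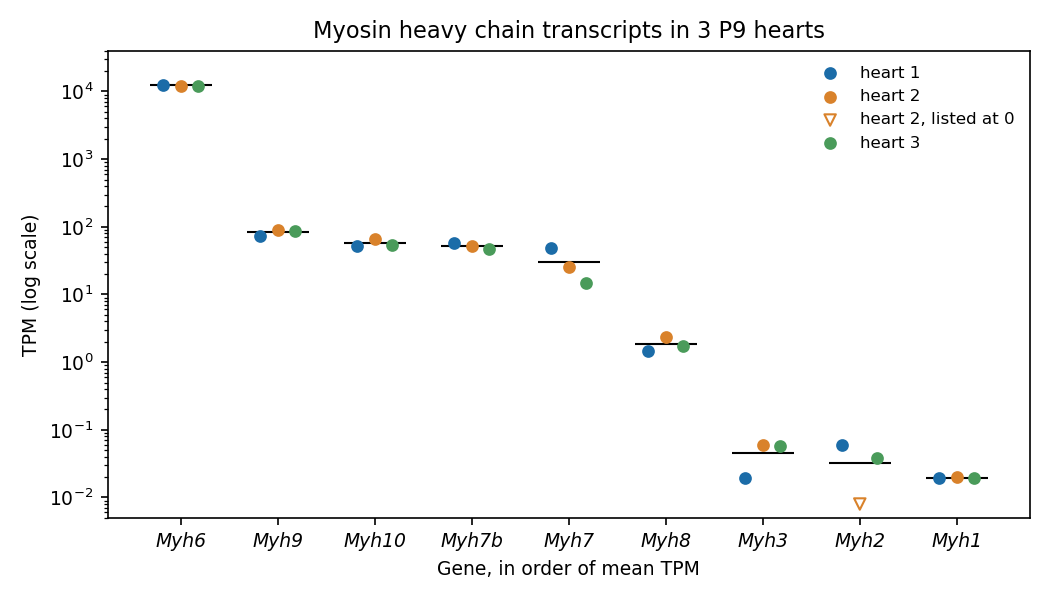
TPM on a log scale for the 9 heavy chain genes in each heart, with a point per heart and a line at the mean of 3 hearts; an open triangle at the foot of the axis marks the 0 of Myh2 in heart 2. Myh6 lies near 12281 TPM, Myh9, Myh10, Myh7b and Myh7 between 14.8 and 89.4 TPM, Myh8 near 1.84 TPM, and Myh3, Myh2 and Myh1 at a few counts.

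Most skeletal muscle markers were low but not all were absent. Of 14 such markers 4 were detected, and the 10 that were not had at most 29 counts in any heart. Among those 10, Tnnt3, the fast troponin T, had 29, 14 and 23 counts in hearts 1, 2 and 3. Atp2a1, the fast-fibre calcium pump, had 21, 24 and 16 counts, Mylpf, a fast regulatory light chain, 15, 9 and 19 counts, and Actn3, a fast-fibre actinin, 19, 17 and 5 counts. Pax7, a marker of muscle stem cells, had 0 counts in all hearts, and Myf5 and Myog, which drive the skeletal muscle programme, had at most 1 and 2 counts. Casq1, a calcium store protein of fast fibres, was at 12.6, 26.7 and 38.2 TPM (edgeR adjusted p = 7.83e-06). The summed level of the list was 55.9, 112 and 181 TPM in hearts 1, 2 and 3, of which Acta1, the skeletal actin also made by the heart, gave 24.7, 74.2 and 130 TPM.

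The order of the detected chains was tested by comparing each pair within hearts, with the edgeR quasi-likelihood test on length-scaled expected counts, heart as a block, two-sided, and Benjamini-Hochberg adjustment over the 15 pairs. The pairs share genes and so are not independent, and the test pools its estimate of spread over the pairs fitted together. Of the 15 pairs, 12 differed at an adjusted p under 0.05. On the log2 scale Myh6 exceeded Myh9 by 7.21 (SE 0.143, edgeR adjusted p = 2.07e-08) and Myh8 by 12.72 (SE 0.299, edgeR adjusted p = 3.09e-08). The log2 difference of Myh6 over Myh7 was 8.86 (SE 0.420, edgeR adjusted p = 1.59e-06). At the other end, Myh7 exceeded Myh8 by 3.85 (SE 0.431, edgeR adjusted p = 0.000161). Without heart 1 the log2 difference was 9.28 for Myh6 over Myh7 and 3.29 for Myh7 over Myh8, and both kept their call.

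The chains between Myh6 and Myh8 were less clearly ordered. Myh9 exceeded Myh10 by a log2 ratio of 0.55 (95% interval 0.08 to 1.02, edgeR adjusted p = 0.0390), and was the higher in 3 of 3 hearts. Myh9 also exceeded Myh7b, by 0.67 (edgeR adjusted p = 0.0416), and Myh7, by 1.65 (edgeR adjusted p = 0.0172). Without heart 2 these 3 adjusted p were 0.189, 0.245 and 0.227, and without heart 3 they were 0.340, 0.340 and 0.112. Without heart 1 all 3 kept their call, with Myh9 over Myh7 at 2.16. Myh10 and Myh7b could not be told apart, with a ratio of 0.11 (95% interval −0.47 to 0.70, edgeR adjusted p = 0.652). Myh10 was the higher of that pair in hearts 2 and 3 and the lower in heart 1.

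Myh10 and Myh7b each had a higher level than Myh7 in 3 of 3 hearts without passing the threshold. The log2 ratio was 1.10 for Myh10 over Myh7 (95% interval 0.02 to 2.18) and 0.98 for Myh7b over Myh7 (95% interval 0.02 to 1.93), both with an edgeR adjusted p of 0.0506. In heart 1 Myh10 was 1.05 times and Myh7b 1.19 times Myh7, and in heart 3 they were 3.66 times and 3.22 times Myh7. Without heart 1 the ratios were 1.60 and 1.34, with edgeR adjusted p of 0.00242 and 0.00752. Without heart 2 both were 0.97, with edgeR adjusted p of 0.322 and 0.279. Without heart 3 they were 0.71 and 0.63, with edgeR adjusted p of 0.340 and 0.348.

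**Figure D2:**
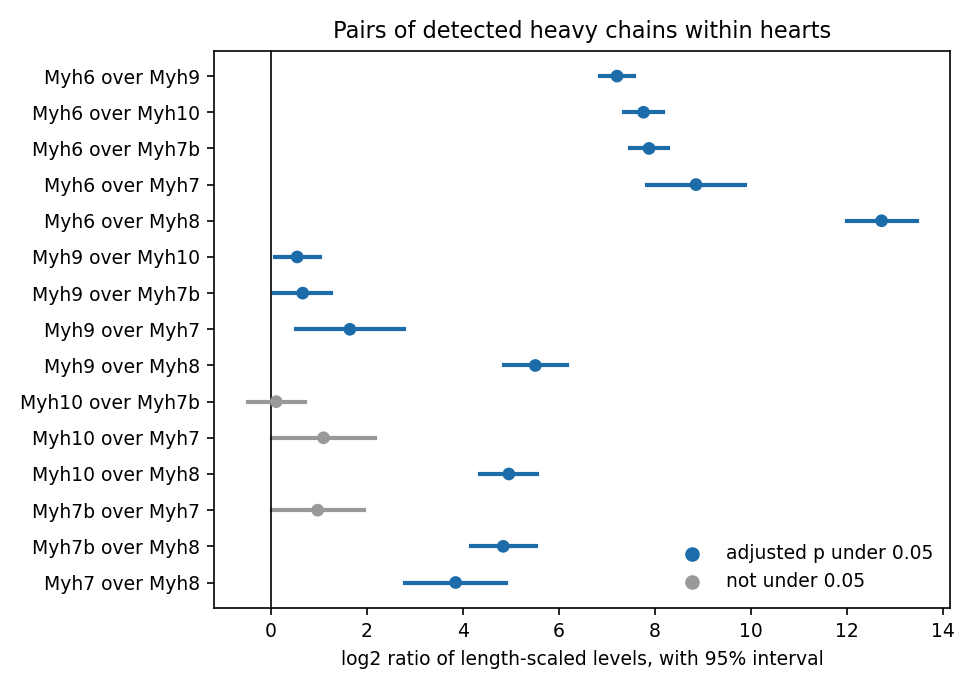
Log2 ratio of the length-scaled levels of each pair of the 6 detected heavy chains, with points at the edgeR estimate, bars for the 95% interval, and colour for an adjusted p under 0.05 over 15 pairs. The 5 pairs with Myh6 on top lie at 7.21 or higher, while the pairs among Myh9, Myh10, Myh7b and Myh7 lie between 0.11 and 1.65 with intervals whose lower ends run from −0.47 to 0.52.

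Between hearts, Myh7 was the 1 member of the family that varied more than genes of like level. Variation was tested for all 13991 genes with at least 30 counts in sum by the edgeR goodness of fit to 1 level in all hearts, with trended dispersion and Benjamini-Hochberg adjustment, and 229 genes passed, or 1.64%. Myh7 had an adjusted p of 1.27e-08 by this edgeR test. Myh6, Myh7b, Myh8, Myh9 and Myh10 had an edgeR adjusted p of 1.00 each, which does not show that they were equal. Myh7 was called in 7 of 7 alternative fits, with an edgeR adjusted p of at most 0.0220. Without heart 1, the library with airway counts, it was 0.00371, with heart 2 at 1.72 times heart 3.

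The counts of Myh7 ranked the hearts as its levels did. They were 2680.43 in heart 1, 1447.55 in heart 2 and 876.15 in heart 3. As a share of the counts of Myh6 and Myh7 together, Myh7 made up 0.390% in heart 1 (95% Clopper-Pearson interval 0.375 to 0.405), 0.211% in heart 2 (0.200 to 0.222) and 0.126% in heart 3 (0.118 to 0.134). The intervals of the 3 hearts do not overlap, though they cover counting error only. Per length, Myh6 was 258, 481 and 810 times Myh7 in hearts 1, 2 and 3.

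**Figure D3:**
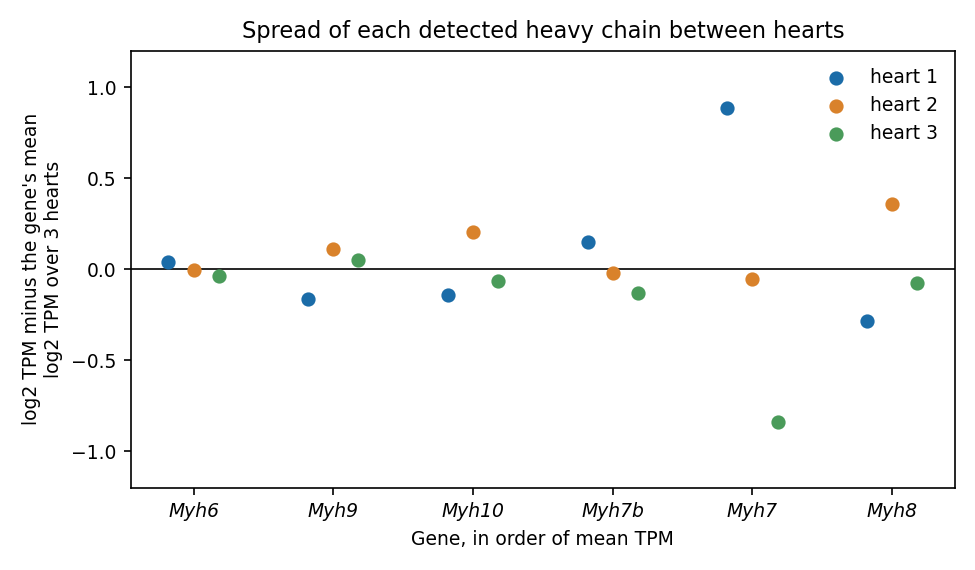
Log2 TPM of each detected heavy chain in each heart minus its mean log2 TPM over the 3 hearts, with a point per heart. Myh7 spreads from 0.89 in heart 1 to −0.84 in heart 3, while every point of Myh6 is within 0.04 of 0 and those of Myh7b, Myh8, Myh9 and Myh10 lie between −0.28 and 0.36.

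Other genes of the fetal and slow muscle programme, chosen after their values were seen, were set beside Myh7. Tnni1, the slow skeletal and fetal cardiac troponin I, was at 1726, 862 and 448 TPM in hearts 1, 2 and 3 (edgeR adjusted p = 2.46e-12), highest in the heart where Myh7 was highest and lowest where it was lowest. Tnni1 was 35.4, 33.8 and 30.3 times Myh7 in hearts 1, 2 and 3, and heart 1 exceeded heart 3 by 3.85-fold in Tnni1 and 3.30-fold in Myh7. Tnni3, the adult cardiac troponin I, was at 6847, 6969 and 7441 TPM and was not called.

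Acta1 and Nppb, also often described as fetal, ran the opposite way. Acta1 was lowest in heart 1 and highest in heart 3 (edgeR adjusted p = 2.26e-16), and so was Nppb, the B-type natriuretic peptide, at 58.7, 203 and 379 TPM (edgeR adjusted p = 1.26e-21). Nppa, the atrial natriuretic peptide, at 3292, 4328 and 4355 TPM, and Actc1, the cardiac actin, at 17723, 21548 and 23603 TPM, were not called. Among the 204 varying genes with a level above 0 in every heart, 77 were highest in heart 1 and lowest in heart 3, as Myh7 was, and 72 were the reverse. Summed smooth muscle markers were also lowest in heart 1, at 633, 1028 and 1307 TPM, led by Acta2, the smooth muscle actin, at 303, 670 and 918 TPM (edgeR adjusted p = 8.68e-09), while Smtn, another gene of that list, was at 165, 180 and 172 TPM. Their part, and that of the airway genes, in the spread of Myh7 was not tested.

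Outside the lists, the genes whose pattern over the 3 hearts lay nearest to that of Myh7 were Clic6, Frmpd1 and Fam163a, by Euclidean distance between log2 deviations (0.0482, 0.0573 and 0.0998 among 12678 genes). All 3 were low, at 2.72, 3.23 and 1.88 TPM in heart 1, and with edgeR adjusted p of 0.431, 0.157 and 0.476 none passed the test of variation. With 3 hearts such closeness describes these libraries only.

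Part of the family's counts were not whole numbers, which can happen when a read that fits several genes is divided between them. The counter is not stated, and how these fractions arose was not tested. Of the 9 genes, 7 had a fractional count in at least 1 heart, against 15.5% of all genes. Myh6 and Myh7 had one in all 3 hearts, against 9.62% of all genes. In each heart their fractional parts left a fractional sum as well, with 687733.93, 685710.93 and 696736.89 counts for the pair, so the fractional parts did not cancel within the pair. In heart 2, Myh9 with 6130.58 and Myh10 with 4666.42 counts added up to 10797.0, a whole number. They were not the only genes fractional in the same heart. In heart 1, Myh1, Myh2, Myh8 and Myh13, the last outside the genes followed, had 1.01, 3.04, 81.9 and 4.05 counts. In hearts 2 and 3 these genes had whole counts. Myh7b and Myh3 had whole counts in every heart.

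These counts can be set beside the shared sequence. Of 50-base windows of the longest protein-coding transcript, 28.2% of Myh7 and 22.6% of Myh6 were found in another gene's transcript, on either strand. Of these, 1373 of 1746 windows of Myh7 were found in Myh6, and all 1373 of Myh6 in Myh7. For Myh1, Myh2 and Myh8 the share found in any other gene was 32.1%, 28.9% and 21.4%, and for Myh3 4.81%. Myh9 had 1.12%, Myh10 had 0.943% and Myh7b had none. At 100 bases the shares were 13.9% for Myh7 and 11.4% for Myh6. How much of the Myh7 count came from divided reads was not tested, and the deposited values do not separate it from unique reads.

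**Figure D4:**
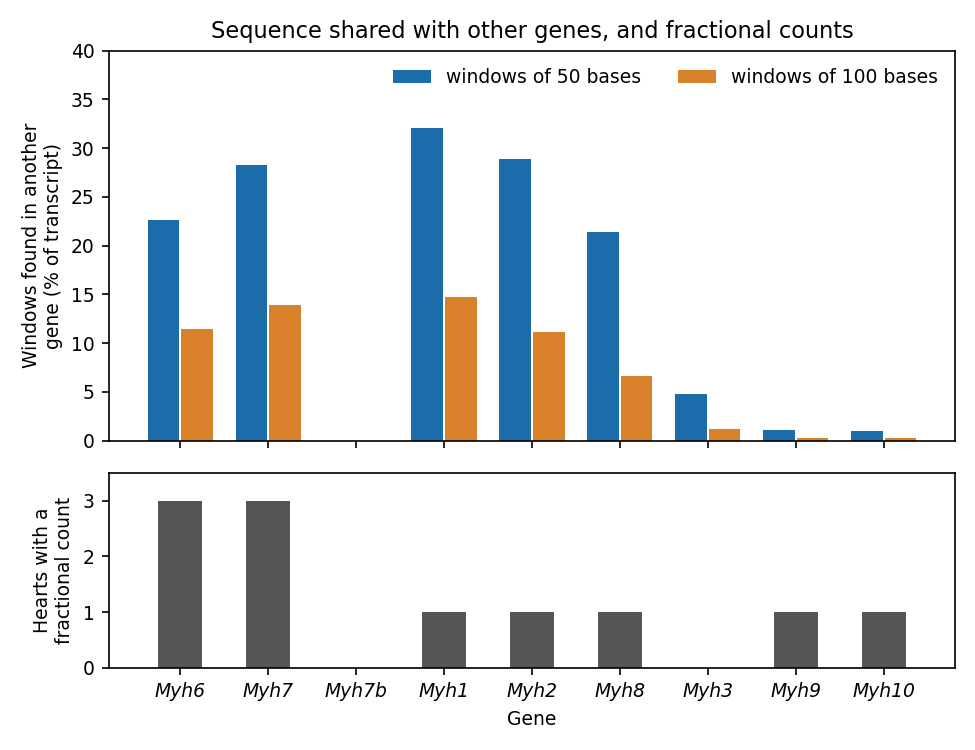
Upper panel: percent of the windows of each heavy chain transcript that occur in another gene's transcript, on either strand, for windows of 50 and 100 bases. Lower panel: number of hearts with a fractional count. Myh6 and Myh7, at 22.6% and 28.2% of 50-base windows, had fractional counts in 3 hearts, while Myh7b, with no shared window, had whole counts only. Not all genes followed that order. Myh1, Myh2 and Myh8, at 32.1%, 28.9% and 21.4%, had fractional counts in 1 heart, as did Myh9 and Myh10 at 1.12% and 0.943%. Myh3, at 4.81%, had whole counts only.

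A further limit lies in genes on the opposite strand. Myh7 is overlapped by Mhrt, a long non-coding RNA of the heart, and by 3 other annotated genes, Myh6 by Gm49130, Myh7b by Trpc4ap, Myh1 by Myhas and Myh2 by 9430073C21Rik. With no strand setting stated, reads of such genes cannot be told apart from those of the heavy chains. The table marks Myh6, Myh7 and Myh9 as plus-strand genes, against the minus strand in GENCODE, as it does for 2600 of 8669 minus-strand genes matched.

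Heavy chains of the same class outside the 10 genes were low too. Myh11, the smooth muscle chain, was at 24.3, 25.2 and 29.8 TPM in hearts 1, 2 and 3 (26.4 ± 2.93 TPM). Myh14, the third non-muscle chain, was at 15.9, 13.2 and 14.6 TPM (14.6 ± 1.33 TPM). Myh13, an eye and throat muscle chain, had 4.05, 0 and 2 counts, and Myh15 had 0 counts in all hearts. Neither Myh11 nor Myh14 passed the test of variation, with edgeR adjusted p of 1.00.

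By TPM, light chains, which bind the neck of each heavy chain, were more abundant than the heavy chains. By counts, Myh6 had 685054 in heart 1, against 133322 for Myl2 and 71920 for Myl3. The ratios below thus depend on gene length. Lengths implied by count and FPKM were 548 bases for Myl2 and 604 for Myl6, against longest GENCODE transcripts of 889 and 1668. For Myh6 they were 5984 against 6113. The sarcomeric light chains summed to 3.33, 3.16 and 3.37 times the striated heavy chains in hearts 1, 2 and 3 (3.29 ± 0.115). Of 6 such light chains 5 were detected, and none varied. Among all genes, 71.8% were detected and 1.64% of those tested varied. Myl2, the ventricular regulatory chain, was at 27070, 25082 and 26231 TPM and Myl3, the ventricular essential chain, at 9826, 9211 and 10064 TPM. The non-muscle and smooth muscle light chains, all 5 detected and none varying, summed to 16.2, 15.2 and 19.7 times Myh9 plus Myh10 (17.1 ± 2.36). Myl12a was at 851 ± 162 TPM and Myl6 at 748 ± 65.8 TPM, and these chains also serve smooth muscle myosin.

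Partners of the heavy chains were mostly detected and mostly not called variable. The same held over all genes, with 71.8% detected and 1.64% of those tested varying. Of 10 thick filament partners 8 were detected, led by Mybpc3, the cardiac myosin-binding protein C, at 1533 ± 122 TPM, and Myom1, an M-band protein, at 525 ± 21.5 TPM. The 1 that varied was Mybpc2, the fast skeletal form of myosin-binding protein C, at 3.48, 5.96 and 13.5 TPM in hearts 1, 2 and 3 (edgeR adjusted p = 2.26e-07), lowest where Myh7 was highest. Genes of myosin folding and turnover were detected in 7 of 7 cases, with Smyd1, a muscle methyltransferase needed for sarcomere assembly, at 411 ± 34.6 TPM and Trim63, a muscle ubiquitin ligase, at 232 ± 28.3 TPM, and none varied. Of 8 light chain kinases and phosphatase subunits 7 were detected and none varied, with Mylk3, the cardiac light chain kinase, at 301 ± 29.1 TPM and Ppp1cb, the catalytic subunit of myosin phosphatase, at 205 ± 17.7 TPM.

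Regulators known to act on Myh6 and Myh7 transcription were all detected, 13 of 13, against 71.8% of all genes. None of them varied between hearts by the test, which only 1.64% of all genes tested passed. Mef2a, a muscle transcription factor, was at 169, 185 and 147 TPM in hearts 1, 2 and 3. Thra, the thyroid hormone receptor alpha gene, was at 189, 152 and 132 TPM (edgeR adjusted p = 1.00). Thrb, the other thyroid hormone receptor gene, was at 4.03, 6.06 and 5.55 TPM (edgeR adjusted p = 1.00). Thra was highest in heart 1, and Thrb was lowest there.

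Markers of the other cell types of the heart were present and, apart from Acta2 in the smooth muscle list, did not vary by the test. Over all genes 71.8% were detected and 1.64% of those tested varied, so most genes of any kind were not called. All 6 atrial markers were detected, with a summed level of 8907 to 9281 TPM, led by Nppa and by Myl7, the atrial regulatory light chain, at 3102 ± 480 TPM. Endothelial markers, 8 of 8 detected, summed to 1109 to 1240 TPM, with the junction gene Cdh5 at 255 ± 22.3 TPM and the receptor gene Eng at 229 ± 7.96 TPM. Fibroblast markers, also 8 of 8, summed to 4146 to 4431 TPM, with the collagen gene Col3a1 at 1231 ± 77.3 TPM and the matrix gene Postn at 782 ± 84.8 TPM. Macrophage and platelet markers, 9 of 9, summed to 224 to 269 TPM, with the complement genes C1qa at 68.9 ± 8.01 TPM and C1qb at 61.8 ± 7.59 TPM. Proliferation markers, 7 of 7, had 213, 260 and 178 TPM in hearts 1, 2 and 3. Of these, Birc5, a mitotic gene, was at 51.5 ± 7.22 TPM and Mki67 at 37.9 ± 9.37 TPM. The part of any of these cells in the levels of Myh9 and Myh10 was not tested.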

How the data were processed

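Messenger RNA levels were taken from a deposited table of 18038 genes for 3 hearts of 1 group. The authors deposited a count per gene and heart, per the file headers, and since part of the values are fractional (more than 0.005 from a whole number) the deposited values were treated here like expected counts. FPKM values stand beside them in the deposited table. The submitters' processing notes name HISAT, an aligner, and the build GRCm38.p6. For the counter and the strand setting, the sources used here give nothing. A line without values was left out.

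TPM was computed here as FPKM rescaled to 1000000 per heart, and CPM from counts. Gene length for pair tests was that implied by count and FPKM. edgeR 4.0.16 (R 4.3.3, limma 3.58.1) was run on expected counts rounded to whole numbers, with TMM factors of 0.985 to 1.02, a minimum of 10 counts in sum for pairs and 30 for variation, and a threshold of 0.05. Pairwise chi-square per degree of freedom between hearts was 9.70 to 23.7, so no heart's counts were a copy of another's. Each heart was counted as a sample, though this value does not show that the hearts were separate animals. Sequences were compared with Biopython 1.88 on GENCODE M21 transcripts. Scripts for the tests were tested on simulated data.

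The genes followed and the gene lists were chosen with earlier results of these data known. The text names every heavy chain, the 2 highest genes of each list and those that varied, and the 3 genes nearest to Myh7 in pattern, and any other gene in the text was picked once its values were known. Alternatives were DESeq2 1.42.0 (Wald test and size factors), limma with pseudocounts of 0.1 and 1, other lengths, filters and dispersion, no heart block, and leaving out each heart.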

Additional observations from a re-analysis of the deposited data

How the results depend on the processing

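The share of Myh6 in the summed level was 97.9% with no length correction, 97.9% with the other class II heavy chains in the sum and 99.3% over the striated genes alone. The number of genes varying between hearts ranged from 106 to 143 when 1 heart was left out, against 229 with all 3, and was 320 with a common dispersion. Of 165 pair ratios under 11 alternatives, 148 kept their call, 6 lost it, 11 gained it and 0 turned direction. The DESeq2 size factors among these could not change a ratio, since both genes of a pair share the size factor of their heart. The 15 calls kept there were thus fixed in advance. The losses were the 3 ratios of Myh9 without heart 2 or heart 3. The gains were Myh10 over Myh7 and Myh7b over Myh7, at adjusted p of 0.0250 and 0.0187 with the DESeq2 Wald test. Neither of these ratios passed without heart 2 or without heart 3. With no replicate block, 12 of 15 pairs passed, as with the heart as the block that pairs 2 genes of 1 library. The RefSeq transcript lengths were not run, and GENCODE lengths were used in their place, chosen after seeing the data. With 1 group and 3 hearts, no effect of age or genotype can be had. With no count minimum, 30 of 36 pairs of the 9 genes passed, but ratios to Myh1, Myh2 and Myh3 rest on few counts and are not given.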
